A study of Rattus norvegicus with 10 samples.

Results

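The late-numbered miRNAs of the rat left ventricle are the probes whose names begin with rno-miR- and carry a registry number of 3000 or more. They were chosen by name alone, with no measured value in the rule, and they made up 111 of the 761 miRNA probes on each array, with 1 spot each. MicroRNAs (miRNAs) were measured on a one-colour rat miRNA chip in 10 hearts of male Wistar rats weighing 250 to 350 g. In the Control group 5 rats received an intravenous saline infusion. In the DEX group 5 rats received dexmedetomidine (DEX), a sedative agonist of alpha2 adrenergic receptors, for 30 min, followed by 5 min of saline washout. No heart of either group was made ischaemic before RNA was taken, each array held the RNA of 1 rat, and the age of the animals was not given in the sources used here. The questions put to the late-numbered set were how many of its members gave a signal in the ventricle, where they stood in brightness among the other miRNA probes, and whether they differed between DEX and Control.

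A miRNA is cut from a hairpin precursor as a short mature strand, from the 5′ arm (5p) or the 3′ arm (3p), and is loaded into an Argonaute protein. There its seed, the bases from position 2 to position 8, pairs with target mRNAs, which are then repressed. The registry gives numbers in the order of submission, so high numbers belong to miRNAs that were described late, mostly from deep sequencing, and several of them are read from the strand opposite to a long-known hairpin.

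Mature sequences from RefSeq (rat, build GRCr8) were matched by name for 98 of the 111 members. The members that gave the brightest signals in these hearts are shown first, because the results on level turn on them. Each is written 5′ to 3′ with its seed in capitals. The probe shared by rno-miR-3084a-3p, rno-miR-3084b-3p and rno-miR-3084d carries 1 name for all of them, and the sequence given for it is the one that rno-miR-3084a-3p and rno-miR-3084d have in common.
rno-miR-6215: uUUAGGGUugcagagccagg
rno-miR-3084a-3p and rno-miR-3084d: uUCUGCCAguccccuucagaca
rno-miR-3584-5p: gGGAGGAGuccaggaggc
rno-miR-3573-3p: uUCCUAACucugcccccucccau
rno-miR-6332: cGCAGGGAcugcaaggagccgca
rno-miR-3068-3p: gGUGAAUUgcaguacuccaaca
rno-miR-6216: gAUACACAgaggcaggaggagaa

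A second set of members is complementary to miRNAs that the same chip also probes. These pairs are shown because they let a late-numbered strand be set beside a strand of known role from the same place in the genome. Capitals mark the longest run over which member and partner are perfectly complementary. miR-210-3p is the miRNA best known for its induction by hypoxia, miR-208a is made from an intron of the cardiac alpha myosin heavy chain gene Myh6, let-7e-5p belongs to the let-7 family, and miR-29b-3p represses collagens and other matrix genes.
rno-miR-3574: UCAGCCGCUGUCACACGCACAG
rno-miR-210-3p: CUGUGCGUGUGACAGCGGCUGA
rno-miR-3546: AUAACCCGGGCCAAAAGCUCac
rno-miR-208a-5p: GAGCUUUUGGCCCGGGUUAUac
rno-miR-3596c: ACUAUACAACCUCCUACCUCA
rno-let-7e-5p: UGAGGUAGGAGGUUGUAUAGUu
rno-miR-3587: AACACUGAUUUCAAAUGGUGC
rno-miR-29b-3p: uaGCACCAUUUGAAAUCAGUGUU

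Levels are given as scaled signal, in arbitrary units. It is the spot intensity above the blank spots, scaled so that the median over each array's detected miRNAs is 25. A miRNA not detected on an array was placed at that array's floor, the lowest detected value, which lay between 3.64 and 5.09. Probes differ in how strongly they bind, so members were compared with other probes by brightness rank within an array and not by level. In such bulk samples, fewer cells of a type and less RNA per cell cannot be told apart.

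Some facts about the arrays touch all values below. The array names carry a code of 3 values, taken here as the slide although the labels do not say so. By it, slide 1 held Control arrays 1 to 4, slide 2 held Control 5 and DEX arrays 1 to 3, and slide 3 held DEX arrays 4 and 5, so that slide and group can hardly be told apart. DEX 1 was the dimmest array, with a median detected signal over blank of 17.3 against 35.4 to 53.5 on the others. Spots that carry no probe read 37.7 on DEX 4 and 28.8 on DEX 5 above the blank, against 6.62 to 10.2 on the Control arrays. DEX 1 to DEX 3 read −0.80, 5.67 and 5.43 at these spots, below every Control array. In the tissue check all 6 heart muscle miRNAs and all 5 blood miRNAs listed as markers were detected on every array. The summed signal was 32202 to 46018 (Control) and 31097 to 45001 (DEX) for heart muscle, and 723 to 1172 and 556 to 1185 for blood. Of the 5 markers of other tissues, 2 (miR-9a-5p and miR-206-3p) were detected on all 10 arrays and the liver marker miR-122-5p on 1. The skeletal muscle marker miR-206-3p had a mean signal of 351. This was above heart muscle miR-208a-3p (181) and miR-208b-3p (15.1) and below the other heart muscle markers (1234 or more). Since probes differ in binding, these levels do not rank the miRNAs by amount.

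Most of the late-numbered miRNAs gave a detectable signal in the ventricle, but a smaller share than of the other probes. In array order, the Control arrays detected 67, 71, 69, 65 and 72 members and the DEX arrays 62, 66, 64, 59 and 56. Over all 10 arrays this was a mean of 58.6% of the 111 members, against 67.5% of the 650 other probes. By registry number, the share detected was 67.9% for the 321 probes under 300, 64.0% for the 284 from 300 to below 1000 and 87.8% for the 27 from there to below 3000.

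Detection was repeatable for most members. Of the 111, 48 (43.2%) were detected on all 10 arrays, 17 on 5 to 9, 20 on 1 to 4 and 26 (23.4%) on none. Among the other probes the shares with calls on all arrays and on none were 54.9% and 15.4%. The 26 members without a call on any array were rno-miR-3595, rno-miR-6314, rno-miR-3551-5p, rno-miR-3551-3p, rno-miR-3084a-5p, rno-miR-3084b-5p, rno-miR-3084c-5p, rno-miR-3556a, rno-miR-3556b, rno-miR-3588, rno-miR-3065-5p, rno-miR-3585-3p, rno-miR-3586-3p, rno-miR-6320, rno-miR-6321, rno-miR-3587, rno-miR-3590-5p, rno-miR-3590-3p, rno-miR-3559-5p, rno-miR-6327, rno-miR-6330, rno-miR-3596d, rno-miR-3580-3p, rno-miR-3583-5p, rno-miR-3564 and rno-miR-3578. A member without a call was below the limit of its array, which does not show that its RNA was absent.

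**Figure D1:**
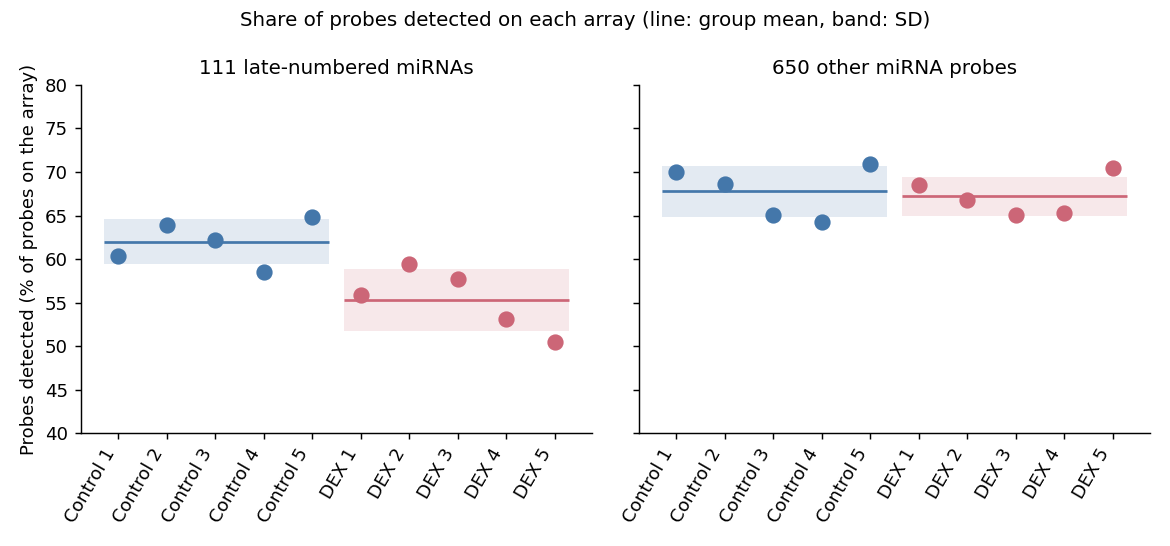
Share of probes detected on each of the 10 arrays (y axis, % of the probes on the array, from 40 to 80) for the 111 late-numbered miRNAs (left) and the 650 other miRNA probes (right). Points are arrays, lines group means and bands 1 SD either side: late-numbered members averaged 62.0% on Control and 55.3% on DEX arrays, the others 67.8% and 67.2%.

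The members also stood low in brightness. On a percentile scale within each array, from 0 for the dimmest to 100 for the brightest miRNA probe, the median member stood at 40.6 on average (34.2 to 44.4 by array) and the median other probe at 52.0. The median stood at 53.7 for probes numbered under 300 at 47.0 for those from 300 to below 1000 and at 68.8 for the 27 from there to below 3000. Restricted to detected miRNAs, the median percentile was 38.1 for members and 51.5 for the others.

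The set was not uniformly dim. Between 8 and 10 members were among the 100 brightest probes of an array, and the members together made up 3.87% of the summed signal (3.61% to 4.22% by array). In mean percentile, 7 members stood above 90 and 8 between 80 and 90, while 22 stood between 10 and 20, the fullest band. These bands held 6.31%, 7.21% and 19.8% of the members, against 10.3%, 10.6% and 13.5% of the other probes.

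**Figure D2:**
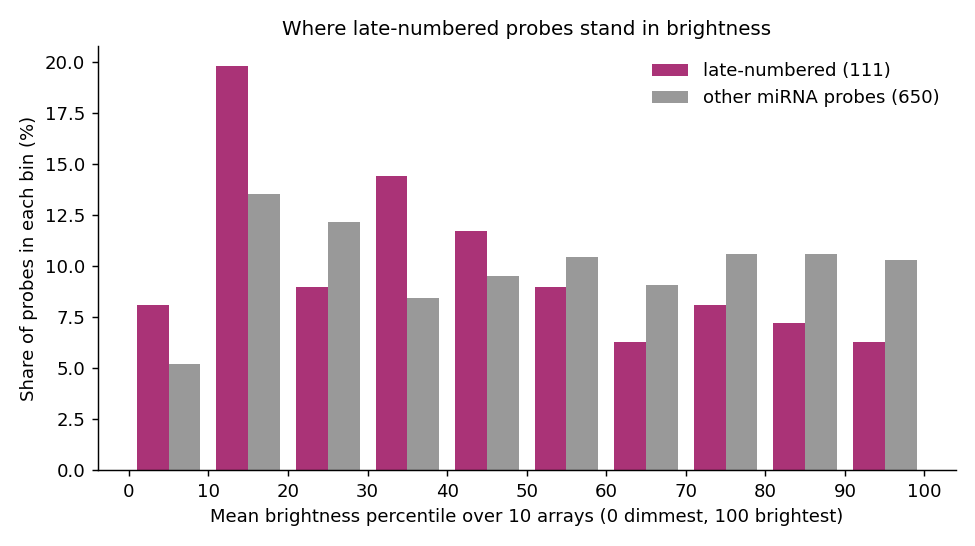
Share of probes (y axis, %) in each band of 10 of the mean brightness percentile over 10 arrays (x axis, 0 dimmest to 100 brightest) for the 111 late-numbered miRNAs and the 650 other probes. The band from 10 to 20 holds 19.8% of the late-numbered and 13.5% of the other probes, and the band from 90 to 100 holds 6.31% and 10.3%.

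The 8 brightest members ranked within the brightest 100 probes on every array. rno-miR-6215, at chr5:157133953-157133972 (minus strand) inside the span of Iffo2, ranked between 27 and 46 of all miRNA probes on every array. rno-miR-6215 read 1452, 1873, 1363, 1129 and 1370 in Control 1 to Control 5 and 1921, 1413, 1036, 693 and 1429 in DEX 1 to DEX 5. The groups overlapped, with the highest and the lowest value both among the DEX arrays. rno-miR-3072, which had no sequence in the table used, ranked between 37 and 43. It read 975, 946, 668, 861 and 1174 on the Control arrays and 985, 884, 860, 998 and 1029 on the DEX arrays, so that the DEX values lay within the Control range.

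The probe shared by the rno-miR-3084 names ranked between 38 and 46. Its sequence lies at chr6:93551127-93551148 (minus strand) in the spans of Klhdc2 and Nemf, at chr7:60665934-60665955 (plus strand) in that of Usp15 and at chr19:55718541-55718562 (minus strand) in that of Sf3b3, so that 1 probe reads at least 3 loci. The signal was 781, 779, 649, 704 and 1131 on the Control arrays and 1157, 995, 855, 807 and 1207 on the DEX arrays. Control 5 was the only Control array inside the DEX range. rno-miR-3584-5p, the shortest of the bright members at 18 bases and the richest in G and C at 72.2%, lies at chr1:256727582-256727599 (minus strand) in the span of Itprip. rno-miR-3584-5p read 590, 836, 753, 851 and 706 on the Control arrays and 687, 737, 751, 785 and 905 on the DEX arrays, and the groups overlapped.

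Next in signal came rno-miR-3573-3p, at chrX:68299322-68299344 (plus strand) in the span of Efnb1, which encodes the membrane ligand ephrin-B1. It read 435, 407, 353, 458 and 472 on the Control arrays and 433, 445, 478, 428 and 423 on the DEX arrays. rno-miR-6332, at chr5:166120278-166120300 (plus strand) in the span of Rere, read 316, 312, 284, 335 and 342 on the Control and 286, 317, 381, 290 and 318 on the DEX arrays. Both overlapped between the groups. rno-miR-3068-3p, at chr6:112811880-112811901 (minus strand) in the span of Alkbh1, read 326, 308, 247, 241 and 361 on the Control and 345, 314, 276, 296 and 346 on the DEX arrays. rno-miR-6216, at chr3:65165595-65165617 (minus strand) in no annotated gene span, read 231, 196, 209, 216 and 272 against 176, 236, 209, 173 and 236. These last members ranked between 54 and 91 on all arrays. Over the 8 brightest members the log2 difference, DEX minus Control, ran from −0.21 for rno-miR-6215 to 0.32 for the shared rno-miR-3084 probe, and none passed the test described below. The value of rno-miR-6215 rested on DEX 4, without which it was −0.0018, and it was −0.11 without Control 2 and −0.37 without DEX 1.

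Brightness varied with base composition among the members. The median share of G and C bases was 50% in the 98 members with a sequence and 47.6% in the 588 other miRNAs with one, and the median length was 22 bases in both. Members detected on every array had a median of 55.6% G and C (n = 43), against 41.3% (n = 22) for members detected on none. Spearman's rho between the share of G and C and the mean brightness percentile was 0.61 across the 98 members and 0.29 across the other 588. Among these others rho was 0.23 for numbers under 300 (n = 294) and 0.48 from 300 to below 1000 (n = 251). It was 0.14 from there to below 3000 (n = 26) and −0.55 for let-7 (n = 17). These are correlations across miRNAs on the same 10 arrays, and miRNAs are not independent replicates. A probe designed to a given sequence has the same share of G and C, so the composition of a miRNA and of such a probe cannot be told apart. The probe sequences themselves were not used here. Among the members composition did not go with the group difference, with rho = 0.0020 across the 57 that had a sequence and were tested. Across the 395 other miRNAs with a sequence and a test, rho was −0.20.

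**Figure D3:**
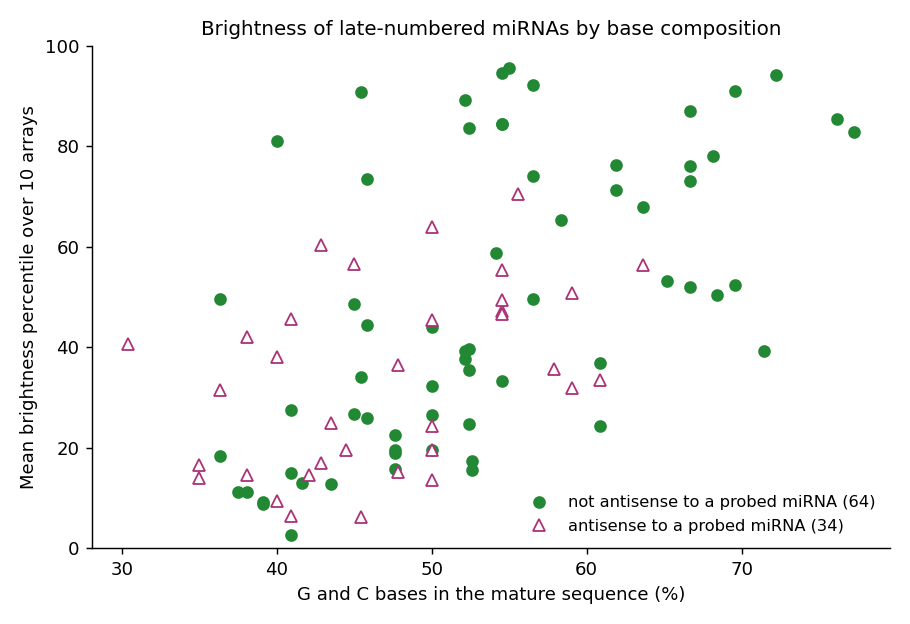
Share of G and C bases in the mature sequence (x axis, %) against the mean brightness percentile over 10 arrays (y axis) for the 98 late-numbered miRNAs with a sequence. Filled circles are the 64 members that are not complementary to another probed miRNA and open triangles the 34 that are. The rank correlation over all 98 was 0.61, and the triangles reach a percentile of 70.5 at most.

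Many members were complementary to another probed miRNA. With a run of at least 15 complementary bases as the limit, 34 of the 98 members with a sequence had such a partner, and for 20 of them the run covered the whole member. In 27 of the 34 the annotation places another hairpin on the opposite strand over the member's own hairpin. Of these 34 members 11 were detected on all arrays and 10 on none, and their median percentile was 34.6. Of the 64 other members with a sequence 32 were detected on all arrays and 12 on none, with a median percentile of 44.3. The share of G and C was 46.6% in the 34 and 52.4% in the 64 (medians), so the difference in brightness moved with composition, whose part in it was not tested.

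Most members stood below their partner in brightness where the pair could be ordered. In 13 pairs both strands were detected on 5 or more arrays, and the member stood below its partner in 11 of them and above it in 2, with a Spearman's rho of −0.02 between the mean percentiles across the 13. In 18 pairs 1 strand alone was detected that often, the partner in 14 and the member in 4, and the other strand was mostly below the limit of detection, so that only the order has meaning there. In the 3 remaining pairs neither was, and no order is given. The 11 partners with a mean percentile of 90 or more, among them miR-1-3p, the let-7 and miR-29 strands and miR-125b-5p, faced members at 9.48 to 60.3, and 6 of these members were detected on no array. Pairs that the rule for naming did not reach are named here after their values were seen. rno-miR-3571, complementary over 21 bases to miR-1-3p, a miRNA of heart and skeletal muscle, was detected on 8 arrays with a mean percentile of 40.7, against 99.6 for its partner. rno-miR-3587, shown above with miR-29b-3p, was detected on no array, while its partner stood at 97.1. rno-miR-3546, inside the span of Myh6, was detected on all 10 arrays at a percentile of 47.3, with miR-208a-5p at 76.0.

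The brightest complementary members stood in the middle of the range. rno-miR-3575 (chr4:159210014-159210031, plus strand, complementary over 16 bases to miR-200c-5p) stood at 70.5 and above its partner at 47.0. rno-miR-3589 stood at 63.9 with miR-505-3p at 81.2, rno-miR-3596c at 60.3 with let-7e-5p at 94.5, and rno-miR-3574 at 56.4 with miR-210-3p at 82.6. rno-miR-3074 stood at 55.4 with miR-24-1-5p at 80.1. rno-miR-3557-3p, in the span of Ppargc1b, a coactivator of mitochondrial gene expression, stood at 50.9 with miR-378a-5p at 80.9, and the other arm of its hairpin, rno-miR-3557-5p, at 49.4 with miR-378a-3p at 94.9. The opposite order was widest for rno-miR-3591, which was detected on all 10 arrays at 56.5, whereas its full-length partner miR-122-5p was detected on 1 array and stood at 17.8.

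**Figure D4:**
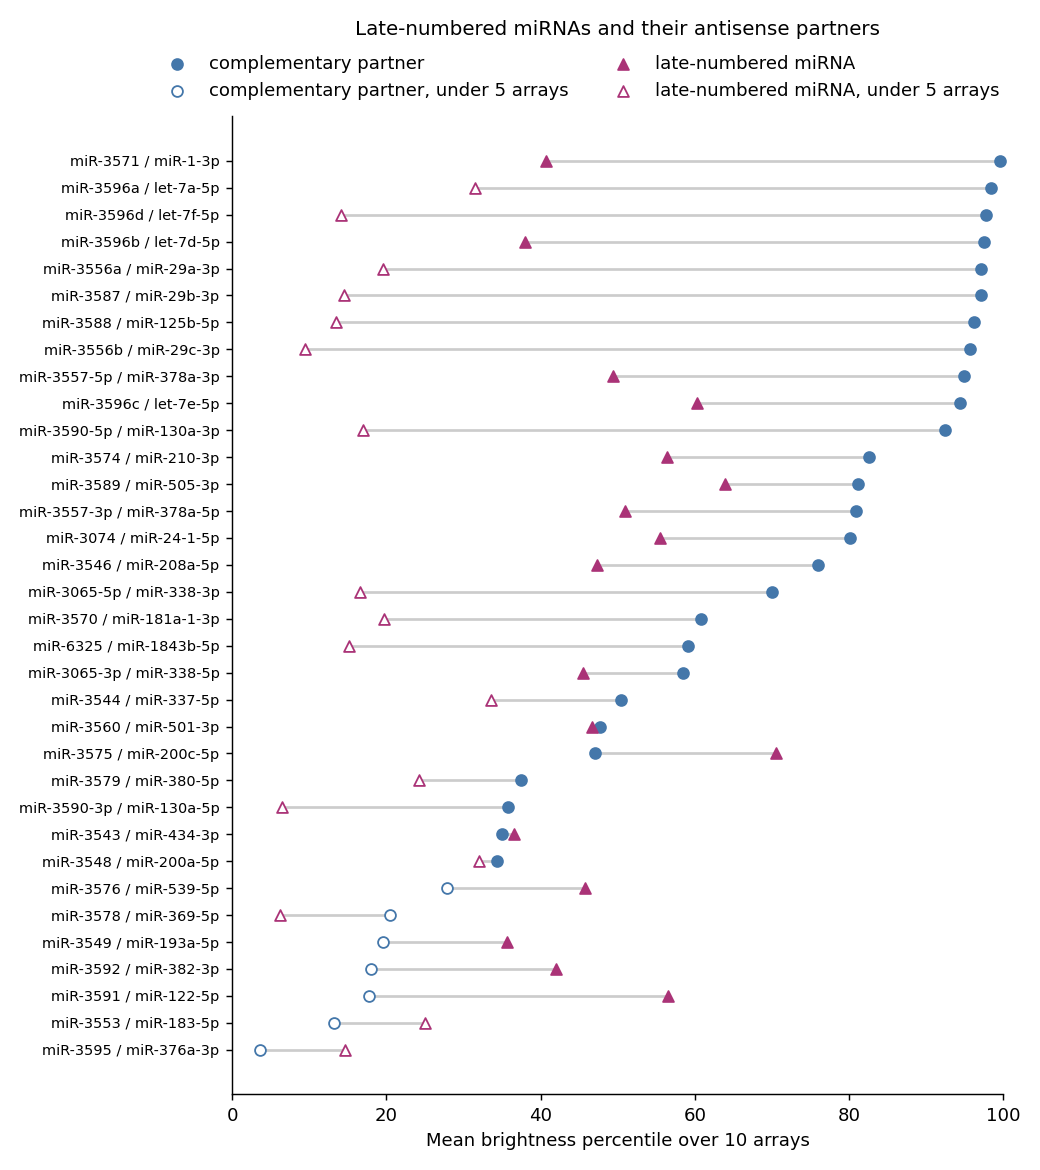
Mean brightness percentile over 10 arrays (x axis) of the 34 late-numbered miRNAs (triangles) and of the probed miRNA to which each is complementary over at least 15 bases (circles), 1 pair per line, sorted by the partner. Open symbols mark miRNAs detected on fewer than 5 arrays, and where both symbols are filled the member stood below its partner in 11 of 13 pairs.

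In 19 late-numbered hairpins each arm had a probe of its own. Both arms were detected on 5 or more arrays in 8 of them, where the 5p arm was the brighter in 3 and the 3p arm in 5, the same arm on all 10 arrays in 6, with gaps of 1.51 to 48.1 percentile points. In 5 hairpins 1 arm alone was detected that often, the 5p arm in 3 and the 3p arm in 2, and it was the brighter on all 10 arrays in all 5. In the other 6 neither arm was, and no order is given. The 5p arms of rno-miR-3084a and rno-miR-3084b were probed as well and were detected on no array, at percentiles of 6.45 and 9.94, but their 3p probe, at 94.6, is shared between hairpins and cannot be assigned to 1 of them. Among the 19 the gap was widest, at 72.5 points and against an undetected arm, in rno-miR-3084c, a hairpin in no annotated gene span, whose arms lie at chr5:89192494-89192514 and chr5:89192533-89192553 (plus strand) and are shown here with their seeds in capitals.
rno-miR-3084c-5p: gUUGAAGGuuaauuagcagag
rno-miR-3084c-3p: cUGCCAGUucccuucagacaa

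The 3p arm of rno-miR-3084c stood at 83.7, with 90.2, 85.1, 73.6, 91.1 and 109 on the Control arrays and 96.5, 113, 94.9, 87.1 and 133 on the DEX arrays, while its 5p arm was detected nowhere and stood at 11.2. Apart from its last base and a single mismatch, the 3p sequence lies within the one given for the shared rno-miR-3084 probe. That probe was brighter, with a mean signal of 907 against 97.4. Whether the rno-miR-3084c-3p probe also read the strands of the shared probe was not tested. Wide gaps were also seen in rno-miR-3573 (3p at 92.2, 5p at 44.1), rno-miR-3593 (3p at 84.4, 5p at 38.1) and rno-miR-3584 (5p at 94.2, 3p at 50.5). In these 4 hairpins the same arm was the brighter on all 10 arrays.

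Few members share a seed with another probed miRNA. Among themselves, rno-miR-3084c-5p and 1 of the sequences listed for rno-miR-3084a-5p share UUGAAGG. With other probed miRNAs, rno-miR-3084c-3p shares its seed with miR-192-3p, rno-miR-3573-5p with miR-423-5p, rno-miR-3065-5p with miR-7a-1-3p, and rno-miR-3596d with let-7b-3p, let-7f-1-3p, miR-98-3p and the probe shared by let-7a-1-3p and let-7c-2-3p.

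Brightness differed between stretches of the numbering. The 19 members from 3064 to 3473 had a median percentile of 73.2, and 13 of them were detected on all arrays. The 66 members from 3541 to 3596, which hold most of the complementary strands, had a median of 37.3 with 25 detected on all arrays. The 21 members from 6314 to 6334 had a median of 35.5 with 6 on all arrays. At the edge of the rule, the lowest numbered members rno-miR-3064-5p and rno-miR-3064-3p stood at percentiles of 75.7 and 73.4, and the highest numbered miRNA outside it, rno-miR-2985, at 45.2.

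All 98 members with a sequence were placed on GRCr8. Of these, 60 (61.2%) lay inside the span of a protein-coding gene on either strand and 22 inside no span of a protein-coding or long noncoding gene. Whether a member lay in an exon or an intron was not analysed here.

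No late-numbered miRNA passed the test between DEX and Control. The limma fit covered the 503 miRNAs with calls on 5 or more arrays, and 65 members (58.6%) were among them. At an adjusted p under 0.05, 0 of the 65 members passed, and so did 0 of the 503 (0%). The smallest adjusted p of a member was 0.905. At an unadjusted limma p under 0.05, 0 members passed, against 15 of 503 (2.98%), of which 7 (1.39%) were higher and 8 (1.59%) lower in DEX. No member had groups that did not overlap, against 3 of 503 (0.596%). By exact permutation test 1 member had an unadjusted p under 0.05, against 15 of 503 (2.98%). Replicate spread was wider for members, with a median SD within groups of 0.37 on the log2 scale against 0.29 for the other probes.

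More of the tested members had a lower than a higher mean in DEX, while none passed the test. Of the 65 tested members 38 (58.5%) had a lower mean in DEX, beside 205 of all 503 (40.8%). By registry number the share was 31.6% of 215 tested miRNAs under 300 and 44.3% of 183 from 300 to below 1000. From there to below 3000 it was 58.3% (14 of 24), close to that of the members, and for let-7 it was 25% of 16. The median log2 difference of the members was −0.08 (range −0.66 to 0.41), against 0.04 over all 503. Without scaling between arrays all 503 shifted to a median of −0.16, the members to −0.28 with 55 of 65 lower, and under quantile normalization 41 of 65 were lower. The count was 33 of 65 without background correction, 35 of 65 in the authors' table of processed values and 47 of 65 with slide as a fixed block, where the members' median of −0.17 was no longer below that of all 503, at −0.19. Of the 48 members detected on all 10 arrays 25 were lower, with a median of −0.003. A difference of 1.5-fold or more was seen in 2 members, rno-miR-6319 and rno-miR-6323, against 18 of 503 (3.58%).

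The members with the smallest unadjusted p are given with all their values, since even these overlapped between the groups. Their sequences follow with the seeds in capitals, as far as they are used here.
rno-miR-6319: uCAUUCUCgcugcucuggagu
rno-miR-3543: cAGGAGUCgagugaugguucaaa
rno-miR-3585-5p: uUCACAAGaaggugucuuucau
rno-miR-3065-3p: uCAGCACCaggauauuguugggga

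rno-miR-6319, at chr17:33795444-33795464 (plus strand) in the span of Exoc2, read 5.57, 16.8, 6.36, 10.6 and 4.53 on the Control arrays and 4.98, 3.78, 4.71, 6.41 and 5.09 on the DEX arrays, of which DEX 1 and DEX 5 were at their floors. Only Control 2 and Control 4 lay above every DEX value. The log2 difference was −0.66 ± 0.31 (SE, n = 5 and 5, limma p = 0.0540, adjusted p = 0.905), with a two-sided exact permutation p of 0.119, where 0.00794 is the smallest that 5 against 5 allows. Within slide 2 it was −0.02. rno-miR-6323 read 9.21, 19.6, 17.6, 13.8 and 12.7 on the Control arrays and 5.58, 16.5, 17.5, 6.93 and 5.09 on the DEX arrays, of which DEX 5 was at its floor. DEX 2 and DEX 3 lay among the Control values, and the log2 difference was −0.66 ± 0.36 (limma p = 0.0918, exact permutation p = 0.143) and −0.11 within slide 2. Leaving out 1 array moved rno-miR-6319 to −0.38 without Control 2, and without DEX 4 and DEX 5 rno-miR-6323 stood at −0.27.

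rno-miR-3591, the complement of miR-122-5p, read 13.3, 19.5, 21.2, 20.1 and 13.4 on the Control arrays and 16.8, 12.7, 12.6, 6.45 and 14.5 on the DEX arrays. Control 2 to Control 4 stood above all DEX arrays. The log2 difference was −0.51 ± 0.25 (limma p = 0.0609, exact permutation p = 0.0794), within slide 2 it was 0.05, and without DEX 4 it was −0.29. rno-miR-3543, complementary to miR-434-3p at chr6:134330451-134330473 (minus strand) in the span of Rtl1, an imprinted gene, read 7.80, 8.08, 7.41, 5.90 and 8.02 on the Control arrays. It read 5.27, 3.77, 3.78, 4.67 and 10.7 on the DEX arrays, with DEX 2 to DEX 4 at their floors. DEX 5 was above every Control array, and the other DEX arrays were below all of them. The log2 difference was −0.51 ± 0.26 (limma p = 0.0676, exact permutation p = 0.111). It was −0.93 within slide 2 and −0.77 without DEX 5, where the adjusted limma p was 0.18.

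On the higher side stood the shared rno-miR-3084 probe, with a log2 difference of 0.32 ± 0.18 (limma p = 0.0982, exact permutation p = 0.103) that was −0.18 within slide 2. rno-miR-3585-5p, at chrX:151706773-151706794 (minus strand), read 5.55, 10.8, 6.0, 8.58 and 16.0 on the Control arrays and 14.3, 11.4, 10.5, 9.53 and 12.5 on the DEX arrays. Control 5 was above all DEX arrays. Its log2 difference was 0.41 ± 0.26 (limma p = 0.144, exact permutation p = 0.214) and −0.42 within slide 2, and it ran from 0.25 without Control 1 to 0.63 without Control 5. rno-miR-3065-3p, at chr10:105796384-105796407 (plus strand) in the span of Aatk and complementary to miR-338-5p, read 7.94, 6.48, 6.66, 10.6 and 6.10 on the Control arrays and 9.62, 14.2, 12.3, 6.98 and 6.60 on the DEX arrays. Its log2 difference was 0.36 ± 0.24 (limma p = 0.149, exact permutation p = 0.206) and 0.96 within slide 2, and it was 0.22 without DEX 2 and 0.69 without DEX 4 and DEX 5.

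The 1 member with an exact permutation p under 0.05 was rno-miR-3577, which lay outside the rule for naming and was singled out after its values were seen. It read 28.2, 37.4, 27.0, 25 and 28.3 on the Control arrays and 23.1, 26.9, 24.9, 24.2 and 24.6 on the DEX arrays. Control 4 lay below DEX 2 and the other Control arrays above every DEX array. It was detected on all 10 arrays at a mean percentile of 68.1. The log2 difference was −0.23 ± 0.14 (limma p = 0.128, adjusted p = 0.905, exact permutation p = 0.0159 before any adjustment), −0.18 within slide 2 and −0.13 without Control 2.

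**Figure D5:**
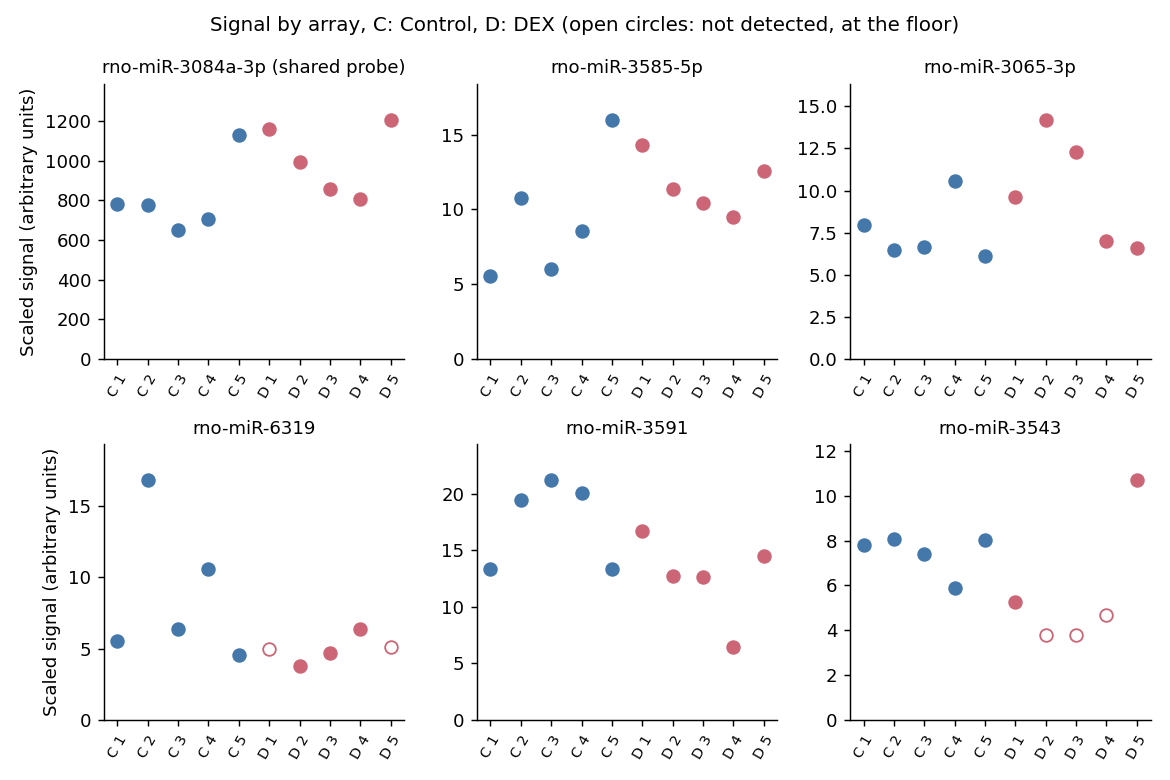
Scaled signal (y axis, arbitrary units, from 0) on each array (C, Control 1 to 5 in blue, D, DEX 1 to 5 in red) of the 3 late-numbered miRNAs higher (top) and the 3 lower (bottom) in DEX with the smallest unadjusted limma p. Open circles mark arrays where the miRNA was not detected and stands at the floor. The groups overlap in every panel, as in miR-3543, where DEX 5 at 10.7 lies above all Control arrays.

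Fewer members were detected on the DEX arrays on average. The mean number of members detected was 68.8 ± 2.86 on Control and 61.4 ± 3.97 on DEX arrays (SD, n = 5 each), a gap of 7.4 members. The groups overlapped, with 66 on DEX 2 and 65 on Control 4. The other 650 probes gave 440.6 ± 19.2 and 436.8 ± 14.8. Within slide 2, Control 5 detected 72 members and DEX 1 to DEX 3 detected 62, 66 and 64. Without DEX 4 and DEX 5 the gap was 4.8.

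The limit of detection differed between the arrays. The highest floors were those of DEX 5 (5.09), DEX 1 (4.98) and DEX 4 (4.67), while the Control floors lay between 3.64 and 4.51 and those of DEX 2 and DEX 3 were 3.77 and 3.78, and the no-probe spots were high on DEX 4 and DEX 5. With the highest floor applied to all arrays, the number of members above it was 64, 70, 61, 59 and 64 for the Control arrays and 61, 61, 57, 58 and 56 for the DEX arrays, a gap of 5.0. For the other probes it was 439, 437, 395, 393 and 442 on the Control and 440, 402, 391, 415 and 458 on the DEX arrays. The part that the limit had in the gap was not tested further. A single count over the members was given no p, since they were chosen with results known.

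By member, 25 of the 111 were detected on more Control than DEX arrays, 4 on more DEX arrays and 82 on equal numbers. Among the other 650 probes these counts were 78, 72 and 500. By registry number they were 37, 36 and 248 under 300 and 36, 35 and 213 from 300 to below 1000. From there to below 3000 they were 4, 0 and 23, and for let-7 1, 1 and 16. The number of arrays differed by 3 or more, with more in Control, for 4 members, against 9 of 761 probes (1.18%), and with more in DEX for 0 members, against 4 of 761 (0.526%). These members were rno-miR-3543 (5 Control and 2 DEX arrays), rno-miR-6317 (5 and 2), rno-miR-3549 (4 and 1) and rno-miR-3559-3p (4 and 0).

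All these members were close to the floor. rno-miR-3559-3p, at chrX:73660153-73660174 (minus strand) in the span of Zdhhc15, read 7.49, 12.2, 4.47 and 5.58 on Control 1, Control 2, Control 4 and Control 5 and was at the floor on the remaining arrays. It had too few calls for the test, and no fold is given because Control 3 was at its floor as well. rno-miR-6317, at chr1:249348422-249348442 (minus strand) in the span of Aldh18a1, read 6.59, 9.77, 4.94, 6.66 and 4.30 on the Control arrays and was above the floor in DEX 2 (8.05) and DEX 3 (6.17). Its log2 difference was −0.13 ± 0.23 (limma p = 0.586, exact permutation p = 0.635), and it changed sign to 0.04 without Control 2 and to 0.54 within slide 2. rno-miR-3549, complementary to miR-193a-5p, read 6.01, 6.86, 5.61 and 5.04 on Control 1, Control 3, Control 4 and Control 5 and 5.71 on DEX 4. Its log2 difference was −0.27 ± 0.17 (limma p = 0.134, exact permutation p = 0.151). Over the whole set 11 members were detected in Control only, against 40 of all 761 probes (5.26%), and 1, rno-miR-6329 on DEX 3, in DEX only, against 36 of 761 (4.73%), each member on at most 4 arrays.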

How the data were processed

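Total RNA of the left ventricle was labelled with Cy5, hybridized to the rat miRNA chip and scanned at 635 nm. Per the file headers, the values deposited for each array are median spot intensities, merged from 3 gain settings, with no background removed. A deposited table for the whole series gives a processed score made by the authors, which equals blank-subtracted intensity scaled by 1 factor per array (99.8% of 5038 values within 0.51). The methods state scaling to a median of 25. The miRBase release is not given in the sources used here. Unused sample columns numbered 0.

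A blank mean, with 5% of blank spots trimmed from either end, was subtracted, each array was scaled to a median of 25 over its detected miRNAs, undetected miRNAs were set to the array's floor, bad spots (1 on Control 1, 3 on DEX 1) were left missing, and log2 was taken. Detection meant a value in the table, which is close to the blank mean plus 2 SD (2 of 7610 calls differed). miRNAs detected on 5 or more arrays were fitted in limma 3.58.1 under R 4.3.3 (functions lmFit and eBayes, two-sided, Benjamini-Hochberg over all of them, threshold 0.05), tested on simulated data. Single members were compared by exact permutation tests. P-values measure the spread between arrays of separate rats, and the number of arrays limits precision.

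Named members were the 8 brightest, the 3 higher and 3 lower with the smallest p, those whose detected arrays differed by 3 or more, the 4 widest arm pairs, the 8 brightest complementary members, those sharing a seed, and those at the edge of the numbering. Others are named where a small count or a pair was singled out after its values were seen. Members, lists and rules were chosen with earlier results of these data known. Sequences and gene spans are from RefSeq (GRCr8). The 12 members absent from the table and rno-miR-3084a-5p, listed with 2 sequences, were left out of sequence measures. Alternatives covered background, scaling, value source, filter, floor, detection limit, model, blocks and arrays left out. One limit for all arrays was added after the data were seen. Figures were drawn with matplotlib 3.10.9.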

Additional observations from a re-analysis of the deposited data

Results flagged for a closer look

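In all, 60 groups of 5 arrays were examined for a single array far from the others, of which chance alone marks about 3, and 2 stood out. They covered the signals of named members detected on 5 or more arrays, the number of members detected and the members' median brightness percentile. For the probe shared by rno-miR-3084a-3p, rno-miR-3084b-3p and rno-miR-3084d, Control 5 read 1131 while the other Control arrays read 649 to 781. Control 5 is also the only Control array on slide 2. For rno-miR-3543, DEX 5 read 10.7 while the other DEX arrays read 3.77 to 5.27, 3 of them at the floor. Outside the miRNA probes, spots that carry no probe read 37.7 above the blank on DEX 4 and 28.8 on DEX 5, both on slide 3, against 6.62 to 10.2 on the Control arrays, while DEX 1 to DEX 3 read −0.80, 5.67 and 5.43. These 2 arrays also gave the fewest detected late-numbered miRNAs, 59 and 56, and the part of one in the other was not tested.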

How the results depend on the processing

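Under all 27 alternatives 0 of the tested late-numbered miRNAs passed the adjusted threshold in limma or in the methods' t-test, and the smallest adjusted p of a member ran from 0.18 to 0.994. The number at an unadjusted limma p under 0.05 ran from 0 to 6. The highest count, 6 of 65, came with slide as a fixed block, where 24 of all 503 were at that p. Quantile normalization gave 4 of 65, beside 32 of all 503, and no scaling gave 4 of 65, beside 22 of all 503. The methods' t-test was run here on the same filtered, scaled log2 values, with undetected miRNAs at the floor. It gave 0 members at its p and fold together, beside 8 of all 503. After Benjamini-Hochberg it gave 0 members and 0 of all 503. The median log2 difference was −0.28 without scaling and 0.051 without the filter on dim miRNAs, where the added members sit at the floor on most arrays, and ran from −0.11 to −0.0071 with 1 array left out (nearest 0 without Control 2). It was below the median of all tested miRNAs by 0.12 in the reported fit and in 25 of 26 alternatives (difference from −0.14 to 0.02), the exception being slide as a fixed block (−0.17 against −0.19). The share of members detected was 50.7% at a limit of 3 SD and 55.0% at 1 limit for all arrays, and 58.0% to 59.6% with 1 array left out. The gap in detected members stayed negative in all alternatives (−8.55 to −4.2, the smallest at the limit of 3 SD), and the median percentile lay between 38.1 and 41.3. Signs reversed as follows. With normexp the shared rno-miR-3084 probe had −0.51 and rno-miR-3585-5p −0.0049. With slide as a fixed block, which compares the groups only within slide 2, the shared rno-miR-3084 probe had −0.18, rno-miR-3585-5p −0.42, rno-miR-3591 0.055, rno-miR-6215 0.043 and rno-miR-6317 0.54. Without background correction rno-miR-3549 had 0.0016 and rno-miR-6317 0.0082. With undetected values missing, rno-miR-3543 had 0.022 and rno-miR-6317 0.19. rno-miR-6317 also had 0.019 at a limit of 3 SD and 0.019 without DEX 4 and DEX 5, and ran from −0.26 to 0.038 with 1 array left out (positive without Control 2). The cause of the reversals with normexp was not tested. Same-numbered Control and DEX arrays did not deviate together (correlations −0.08 to 0.11 over 501 miRNAs). Correlations near 0 cannot show by themselves whether the numbers pair the rats. The paper states random assignment of the rats to the groups and mentions no pairs. The replicate block left the median log2 difference at −0.08 and called 0 members. Each group had 5 arrays, the slides nearly divided the groups, and a part of the tested members lay near the floor. Differences of the size seen here could not be told from the spread between arrays.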
